A study of Homo sapiens with 6 samples.

Results

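The G2/M and mitosis genes are 38 genes whose products bring a cell from the end of DNA replication through chromosome segregation to cytokinesis. They were a named list of symbols, matched to the Ensembl identifiers of a deposited expression table, and not chosen by a threshold on any value. The list was, however, chosen with earlier results of these data known. Its counts beside all tested genes are therefore a description and not a test. All 38 were found among the 20036 genes of the table. All 38 also had a mean of at least 1 FPKM (fragments counted for a gene, scaled by the length of its transcript and by library size) over the 6 libraries, and so were among the 10547 genes tested.

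Entry into mitosis is driven by the kinase CDK1 bound to A- and B-type cyclins, which CDC25 phosphatases switch on by removing inhibitory phosphates. The spindle checkpoint holds the cell until every kinetochore is attached, and the anaphase-promoting complex (APC/C) with CDC20 then destroys cyclin B and securin. Most of these genes are transcribed late in the cycle: the DREAM complex represses them in quiescent and G1 cells through the cell cycle genes homology region, and MYBL2 and FOXM1 activate them towards G2, often together with NF-Y at CCAAT boxes. In proliferating granulosa cells and tumours derived from them these genes are commonly used as a measure of division.

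RNA was measured in KGN, an established human line from an ovarian granulosa cell tumour with the genotype labelled wild type. The 6 libraries form 3 groups of 2: cells given siOGT1, cells given siOGT2 (both small interfering RNAs against OGT mRNA) and cells given siNC, the negative control. All groups, controls included, were transfected with Lipofectamine 3000 and harvested after 48 hours, and all come from 1 cell line. OGT encodes the enzyme that attaches O-linked N-acetylglucosamine to nuclear and cytoplasmic proteins. The labels do not say whether the 2 libraries of a group came from separate cultures, so p-values measure only the spread between these libraries, which may be technical.

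OGT (ENSG00000147162, chromosome X, 71533083 to 71575897, plus strand, GRCh38, positions here and below from GENCODE release 29) stood at 13.8 and 12.9 FPKM with siOGT1, 14.3 and 14.7 FPKM with siOGT2, and 22.4 and 23.4 FPKM with siNC, which is 58.3% and 63.2% of the siNC mean with siOGT1 and siOGT2. The log2 fold changes on log2(FPKM + 1) were -0.74 (SE 0.0435, BH-adjusted p = 9.3e-06) with siOGT1 and -0.63 (SE 0.0435, BH-adjusted p = 8.88e-06) with siOGT2, and the difference between the siRNAs, siOGT1 minus siOGT2, was -0.11 (SE 0.0435, BH-adjusted p = 0.123). The whole reads behind the FPKM values could be recovered, and library totals ran from about 16756647 to 21416486 reads, with 117 to 10698 reads for a member in a library. Of 10 granulosa cell markers 4 (FOXL2, AMH, INHBA and NR5A1) had a mean of at least 1 FPKM. FSHR was at 0 in every library. The defining enzyme CYP19A1 was at 0.011 FPKM in siOGT1 replicate 2 and at 0 in every other library. The summed level of the granulosa list was 39.55 to 41.35 FPKM with siOGT1, 38.23 to 39.25 FPKM with siOGT2 and 38.05 to 38.79 FPKM with siNC. None of 6 leukocyte or 4 endothelial markers reached a mean of 1 FPKM, and their sums were at most 1.199 and 1.326 FPKM in any library, whereas 2 of 5 epithelial markers (KRT8 and KRT18) and 1 of 5 theca and stromal markers (LUM) did. The epithelial sum was 29.34 to 30.35 FPKM with siOGT1, 31.96 to 34.14 FPKM with siOGT2 and 26.87 to 28.39 FPKM with siNC, and the theca and stromal sum was 8.405 to 8.654, 10.03 to 10.14 and 10.03 to 10.08 FPKM in the same order. Their part in the results was not tested. The share of reads from 13 mitochondrial genes was 2.07% and 2.09% with siOGT1, 2.31% and 2.34% with siOGT2, and 2.01% and 1.99% with siNC, so it was higher with siOGT2, and its part in the results was not tested.

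Knockdown with either siRNA was followed by lower levels of some G2/M and mitosis genes, fewer with siOGT1 than with siOGT2. No member was called in the other direction, and the genes concerned and the size differed between the siRNAs. With siOGT1, 9 of the 38 members fell, 0 rose and 29 were not called, beside 8.10% of all tested genes lower and 9.51% higher. The 9 were led by TOP2A, the topoisomerase that untangles sister chromatids, TPX2, which activates Aurora A and nucleates spindle microtubules, CDC25B and ANLN. With siOGT2, 29 fell and 0 rose, beside 13.4% of all tested genes lower and 22.1% higher, and the members with the most negative log2 fold changes were AURKB, HMMR, KIF2C, AURKA and CENPA. A member counted as called at a Benjamini-Hochberg (BH) adjusted p under 0.05 in limma, fitted to all 10547 genes. Log2 fold changes are on log2(FPKM + 1), which understates the change of low genes, and a difference between the siRNAs is siOGT1 minus siOGT2 on the same scale. Where a call is described as lost, each library named was left out alone, and the range of adjusted p in brackets runs over all alternatives. The other settings named there test genes of any level (no filter), give up the trend of the variance with the level (no trend), or use voom on the recovered reads. In this bulk RNA, fewer cells in G2 and mitosis and less of each mRNA per cell cannot be told apart.

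The 9 members that fell with siOGT1 are 23.7% of the list, and the 29 that fell with siOGT2 are 76.3%. The member medians of the log2 fold change were -0.05 with siOGT1 and -0.24 with siOGT2, beside medians over all tested genes of 0.03 and 0.05. Scaling the libraries by a trimmed mean of log ratios instead left 12 members lower with siOGT1 and 32 with siOGT2, with 0 higher. In that scaling the calls over all tested genes were more often downwards, with 9.67% lower and 5.09% higher with siOGT1, and 17.4% lower and 13.6% higher with siOGT2.

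The members that fell with each siRNA numbered 8: TOP2A, TPX2, AURKA, AURKB, BUB1, ANLN, KIF2C and NDC80. This 8 of 38 stands beside 5.11% of all tested genes that were lower with each. Both comparisons use the same siNC libraries. For the mean of both siRNAs against siNC, 21 members fell and 0 rose (median log2 fold change -0.16), beside 11.8% of all tested genes lower and 19.4% higher (median 0.04). This count was 13 without siNC replicate 1 and 12 without siNC replicate 2, where 7.13% and 7.25% of all tested genes were lower. The count for siOGT2 was 18 without siNC replicate 2, beside 8.92% of all tested genes, and it lay between 22 and 30 with any other library left out.

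Both siOGT2 libraries lay below both siNC libraries for 34 of 38 members, beside 25.1% of all tested genes. Both siOGT1 libraries did so for 17 of 38, beside 21.3%, and all 4 siOGT libraries for 15 of 38, beside 13.3%. Added over the members, the level was 585 and 628 FPKM with siOGT1, 576 and 587 FPKM with siOGT2, and 677 and 687 FPKM with siNC. Such a sum gives the most weight to genes of high level, such as ANLN. The median over the members was 11.04 and 11.3 FPKM with siOGT1, 10.7 and 10.8 FPKM with siOGT2, and 12.2 and 12.2 FPKM with siNC. Within the siOGT1 group, replicate 2 was above replicate 1 for 35 of 38 members, beside 54.4% of all tested genes. The median log2 difference was 0.09 over the members and 0.01 over all tested genes. The member median of siOGT1 against siNC, -0.05, was smaller in size than this difference between replicates. Members that move together between libraries are not separate observations. Replicate 2 was the higher for 25 of 38 members with siOGT2 and for 28 of 38 with siNC, beside 50.8% and 52.0% of all tested genes. The number of members lower with siOGT1 was 6 without siOGT1 replicate 1 or either siNC replicate, and 13 without siOGT1 replicate 2. Over all tested genes the share lower was 6.15% without siOGT1 replicate 1 and 6.37% without siOGT1 replicate 2. It was 5.10% and 5.37% without siNC replicate 1 and 2.

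**Figure D1:**
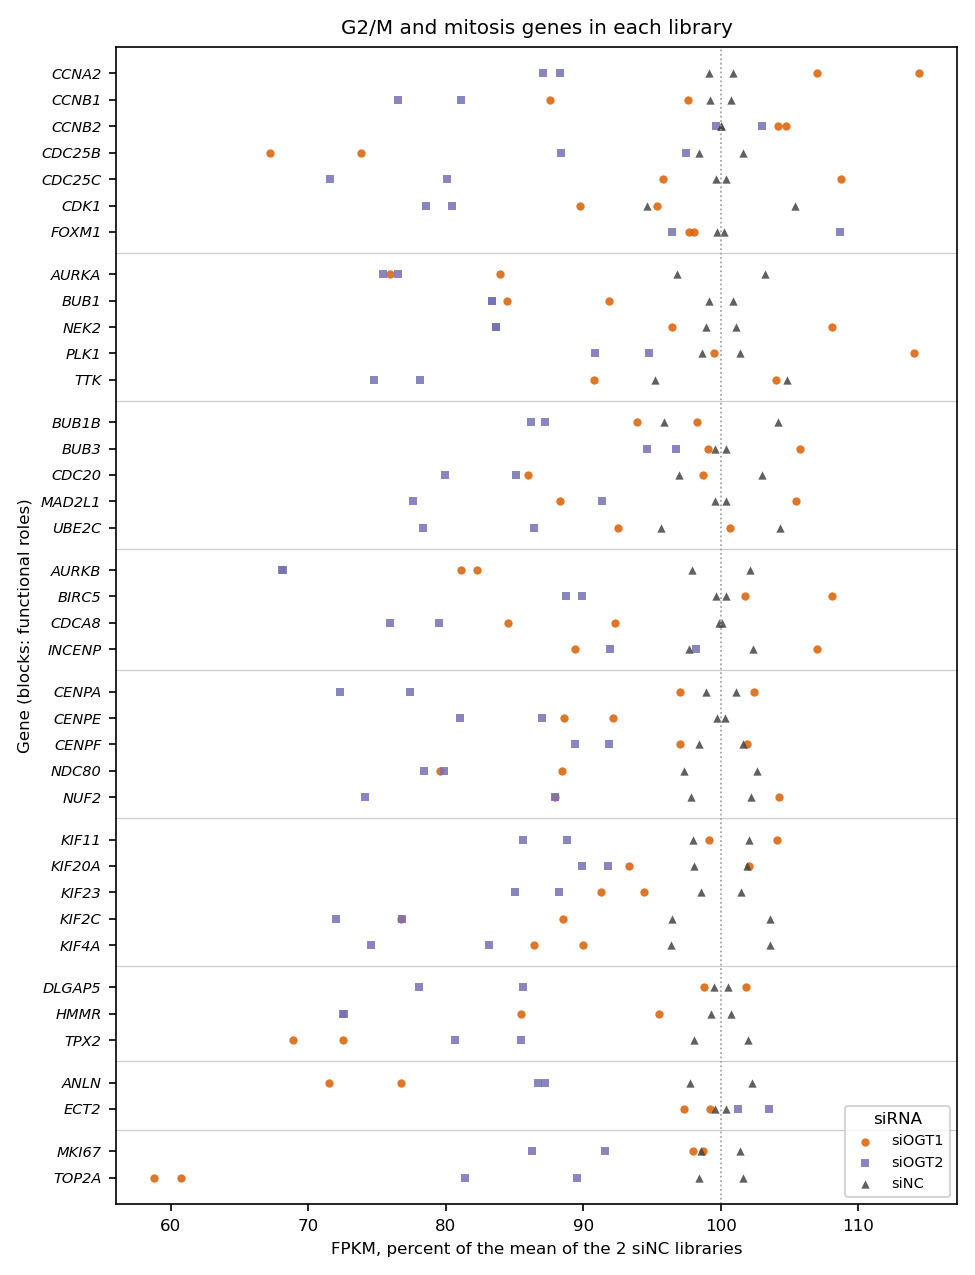
Level of each of the 38 members in each of the 6 libraries, as percent of the mean FPKM of the 2 siNC libraries, with genes in blocks by role and 1 point per library. The siOGT2 squares lie below both siNC triangles for 34 genes, whereas the siOGT1 circles do so for 17 and lie farthest to the left for TOP2A.

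The same siRNAs were then compared with each other, since both target OGT. The OGT level was not called different between them, but an equal level was not shown. Both siOGT1 libraries (13.8 and 12.9 FPKM) lay below both siOGT2 libraries (14.3 and 14.7 FPKM) for OGT. The part of the OGT level in the differences below was not tested. Of the 38 members, 4 were lower with siOGT1 than with siOGT2 (TOP2A, CDC25B, ANLN and TPX2) and 14 were higher with siOGT1, beside 8.24% and 8.35% of all tested genes. The median log2 fold change of siOGT1 against siOGT2 was 0.14 over the members and -0.01 over all tested genes. The 14 were CENPA, CCNA2, HMMR, TTK, CDC25C, DLGAP5, NEK2, AURKB, CCNB1, UBE2C, BIRC5, KIF11, CDK1 and CENPF. This count fell to 6 without siOGT1 replicate 2, to 8 without siOGT2 replicate 1 and to 7 without siOGT2 replicate 2, and it was 8 when genes of any level were tested. In these settings 5.40%, 5.26%, 3.95% and 3.06% of all tested genes were higher with siOGT1. The calls for TOP2A, CDC25B, ANLN, CCNA2, NEK2, CENPA, HMMR and DLGAP5 held under all alternatives.

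**Figure D2:**
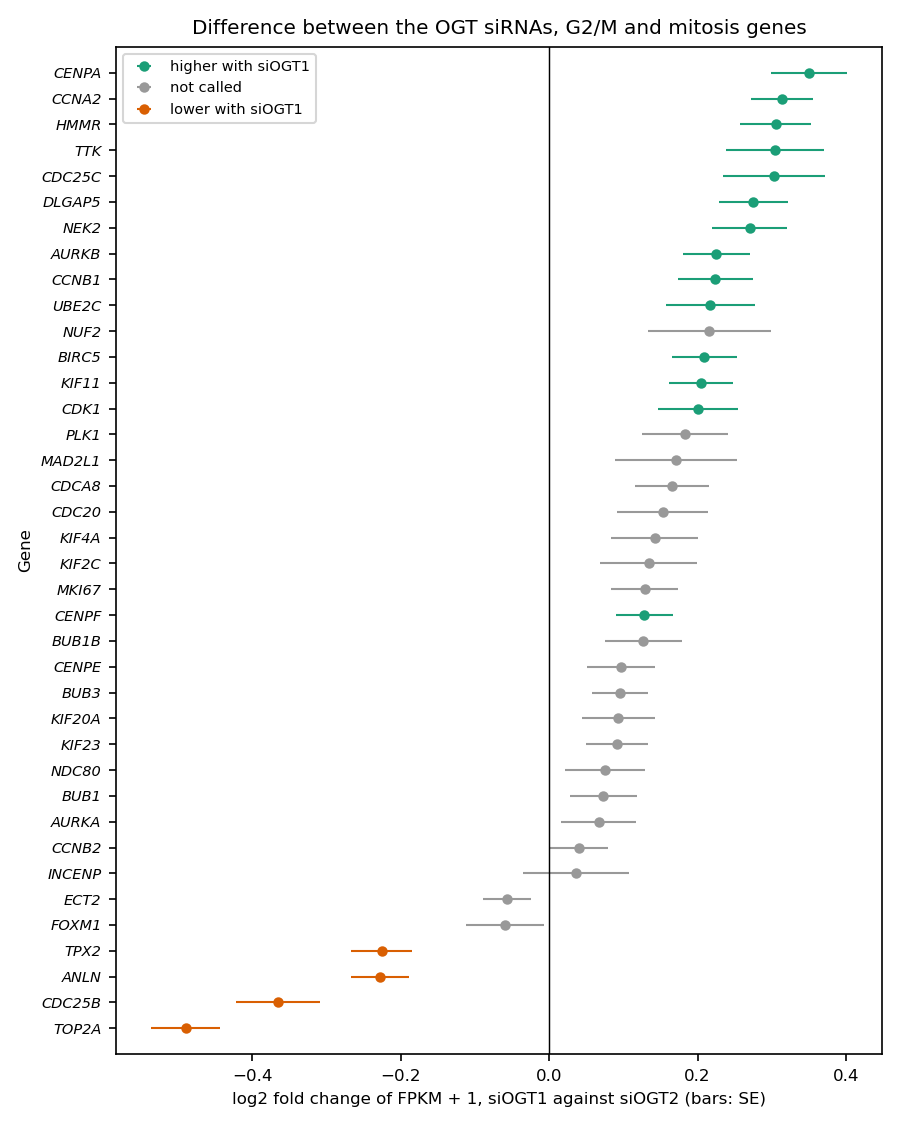
Log2 fold change of FPKM + 1, siOGT1 against siOGT2, for each of the 38 members, with points for the estimate and bars for its SE. The 4 genes lower with siOGT1 (orange) are TPX2, ANLN, CDC25B and TOP2A at -0.23 to -0.49, and the 14 higher with siOGT1 (green) reach 0.35 for CENPA.

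Of the 38 members, 31 were found in the RefSeq promoter table of GRCh38.p14, with 40 windows of 300 bases from 250 before to 50 after a transcript start. AURKA, BIRC5, BUB3, FOXM1, TPX2, TTK and UBE2C were not among them. The core of the cell cycle genes homology region, searched as TTTGAA on both strands, was in the window of 22 of 31 members (71.0%), beside 13.8% of 8693 tested genes in the table and 18.2% of all 27305 genes. The CCAAT box, searched as CCAAT on both strands, was in 25 of 31 (80.6%), beside 44.1% and 39.7%. Both motifs stood in the same window for 18 of 31 (58.1%), beside 5.8% and 7.3%. The E2F forms TTCCCGC and TTGGCGC, on either strand, were in 5 of 31 (16.1%), beside 18.1% and 11.0%. CCAAT and its reverse complement ATTGG can overlap each other, as at 1 place in HMMR, and ATTGG can overlap TTGGCGC.

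The 250 bases before the start are shown, to let the position of these motifs be seen, for TOP2A, AURKB, ANLN and HMMR, the 4 members with the smallest p for the mean of both siRNAs among those in the table. They run 5′ to 3′ on the strand of the gene, and capitals mark TTTGAA or TTCAAA and CCAAT or ATTGG. In the RefSeq table these bases are chr17:40417897-40418146 on the minus strand for TOP2A, chr17:8210226-8210475 on the minus strand for AURKB (the first of 2 windows), chr7:36389612-36389861 on the plus strand for ANLN and chr5:163460382-163460631 on the plus strand for HMMR. GENCODE release 29 starts its gene model farther upstream than RefSeq, and its gene covers 54 of the 250 bases for TOP2A, 56 for ANLN and all 250 for AURKB and HMMR.
TOP2A: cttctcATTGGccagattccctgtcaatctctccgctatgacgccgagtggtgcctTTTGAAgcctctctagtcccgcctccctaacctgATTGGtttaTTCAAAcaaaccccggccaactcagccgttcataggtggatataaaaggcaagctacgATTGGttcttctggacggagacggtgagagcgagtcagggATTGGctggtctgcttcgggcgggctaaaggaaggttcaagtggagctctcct
AURKB: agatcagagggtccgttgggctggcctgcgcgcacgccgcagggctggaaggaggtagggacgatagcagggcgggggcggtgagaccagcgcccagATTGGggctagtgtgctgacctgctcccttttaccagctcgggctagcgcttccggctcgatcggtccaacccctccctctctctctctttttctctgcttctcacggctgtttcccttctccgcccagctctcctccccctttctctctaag
ANLN: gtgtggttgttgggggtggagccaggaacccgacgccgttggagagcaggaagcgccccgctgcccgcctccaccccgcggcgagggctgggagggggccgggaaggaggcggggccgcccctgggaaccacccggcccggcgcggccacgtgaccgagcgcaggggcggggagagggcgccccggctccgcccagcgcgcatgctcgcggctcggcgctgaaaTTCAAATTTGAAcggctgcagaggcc
HMMR: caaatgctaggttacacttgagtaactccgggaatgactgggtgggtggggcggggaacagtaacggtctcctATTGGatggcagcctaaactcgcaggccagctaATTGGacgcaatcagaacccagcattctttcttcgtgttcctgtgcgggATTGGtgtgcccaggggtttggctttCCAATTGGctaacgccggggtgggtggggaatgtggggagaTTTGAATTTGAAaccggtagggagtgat
TOP2A has TTTGAA starting 194 bases and TTCAAA starting 151 bases before the start, with ATTGG at 4 places. AURKB has no TTTGAA on either strand in this window and 1 ATTGG, 153 bases before the start. In ANLN the letters TTCAAA and TTTGAA adjoin, 26 and 20 bases before the start, with no CCAAT box, and in HMMR a pair of adjoining TTTGAA stands 28 and 22 bases before it. A match of letters is a description of the sequence, and binding was not measured.

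Among the cyclins, CDK1 and their activators, 1 of 7 members fell with siOGT1 and 4 of 7 with siOGT2. Of all tested genes, 8.10% were lower with siOGT1 and 13.4% with siOGT2. These shares apply to each role of the members below, and differences between roles were not tested. CDC25B (ENSG00000101224, chromosome 20, 3786772 to 3806121, plus strand), the phosphatase that first activates cyclin B-CDK1 at the centrosome, stood at 10.3 and 9.37 FPKM with siOGT1, 12.3 and 13.6 FPKM with siOGT2, and 13.7 and 14.2 FPKM with siNC. It fell with siOGT1, at a log2 fold change of -0.47 (SE 0.0565, BH-adjusted p = 0.000542), whereas with siOGT2 the change was -0.10 (BH-adjusted p = 0.199), not called. Both siOGT1 libraries were below all others, and the difference between the siRNAs was -0.36 (BH-adjusted p = 0.00245). CDC25C, the phosphatase that amplifies CDK1 activation at mitotic entry, had 2.59 and 2.95 FPKM with siOGT1, 1.94 and 2.17 FPKM with siOGT2, and 2.70 and 2.72 FPKM with siNC. It had a log2 fold change of 0.02 (BH-adjusted p = 0.861) with siOGT1, not called, and fell with siOGT2 (log2 fold change -0.28, BH-adjusted p = 0.0129), and the siRNAs differed by 0.30 (BH-adjusted p = 0.0167). The call with siOGT2 was lost without siNC replicate 1, siNC replicate 2 or siOGT2 replicate 1 (BH-adjusted p 0.00669 to 0.0769) and that of the difference without siOGT1 replicate 2 or siOGT2 replicate 1 (BH-adjusted p 0.0117 to 0.105), and both were lost with no filter.

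CCNA2, the cyclin of S phase and early mitosis, was at 16.3 and 17.4 FPKM with siOGT1, 13.4 and 13.2 FPKM with siOGT2, and 15.1 and 15.3 FPKM with siNC. Its siOGT1 libraries lay above and its siOGT2 libraries below both siNC libraries. With siOGT2 it fell with a log2 fold change of -0.18 (SE 0.0416, BH-adjusted p = 0.0104), a call lost without siNC replicate 2 or siOGT2 replicate 2 (BH-adjusted p 0.00354 to 0.0651). With siOGT1 the estimate was 0.14 (SE 0.0416, BH-adjusted p = 0.0501), just short of the call, and CCNA2 was called higher with a pseudocount of 5, with genes of at least 5 FPKM, and without siOGT1 replicate 1, where the count of members higher with siOGT1 was 1. The siRNAs differed by 0.31 (SE 0.0416, BH-adjusted p = 0.00103). CCNB1, the cyclin of mitotic entry, had 35.7 and 39.7 FPKM with siOGT1, 31.2 and 33.04 FPKM with siOGT2, and 40.4 and 41.03 FPKM with siNC. It fell with siOGT2 (log2 fold change -0.33, BH-adjusted p = 0.0011) and had a log2 fold change of -0.11 (BH-adjusted p = 0.165) with siOGT1, and the difference of 0.22 (BH-adjusted p = 0.0151) was lost without siOGT1 replicate 2 or siOGT2 replicate 1 or with no filter or no trend (BH-adjusted p 0.000465 to 0.101). CDK1 itself had 11.9 and 12.6 FPKM with siOGT1, 10.7 and 10.4 FPKM with siOGT2, and 12.6 and 13.98 FPKM with siNC. It fell with siOGT2 (log2 fold change -0.30, BH-adjusted p = 0.00269). Its difference between siRNAs, 0.20 (BH-adjusted p = 0.0321), was lost without siOGT1 replicate 2, siOGT2 replicate 1 or siOGT2 replicate 2 or with no filter or no trend (BH-adjusted p 0.00935 to 0.157). CCNB2, another B-type cyclin, and FOXM1, the transcription factor of late cell cycle genes, were called in no comparison, at 10.4 to 10.9 FPKM and 10.9 to 12.2 FPKM over the 6 libraries.

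Among the mitotic kinases, 2 of 5 fell with siOGT1 and 4 of 5 with siOGT2. AURKA, which matures centrosomes and is activated by TPX2, stood at 17.1 and 18.9 FPKM with siOGT1, 17.2 and 16.96 FPKM with siOGT2, and 21.8 and 23.2 FPKM with siNC. All 4 siOGT libraries were below both siNC libraries, and it fell with a log2 fold change of -0.31 (SE 0.0506, BH-adjusted p = 0.00305) with siOGT1 and -0.38 (SE 0.0506, BH-adjusted p = 0.000613) with siOGT2. BUB1, a checkpoint kinase that marks centromeric histone H2A, had 11.1 and 12.03 FPKM with siOGT1, 10.9 and 10.9 FPKM with siOGT2, and 12.98 and 13.2 FPKM with siNC. It fell with a log2 fold change of -0.17 (BH-adjusted p = 0.0321) with siOGT1 and -0.24 (BH-adjusted p = 0.00361) with siOGT2, and the call with siOGT1 was lost without siNC replicate 1, siNC replicate 2 or siOGT1 replicate 1 or with no filter or no trend (BH-adjusted p 0.00561 to 0.171). TTK, the kinase that starts checkpoint signalling at unattached kinetochores, had 7.62 and 8.73 FPKM with siOGT1, 6.28 and 6.56 FPKM with siOGT2, and 7.99 and 8.79 FPKM with siNC. It had a log2 fold change of -0.04 (BH-adjusted p = 0.758) with siOGT1, not called, and fell with siOGT2 (log2 fold change -0.34, BH-adjusted p = 0.00433), and the siRNAs differed by 0.30 (BH-adjusted p = 0.0134), lost without siOGT1 replicate 2, siOGT2 replicate 1 or siOGT2 replicate 2 or with no filter (BH-adjusted p 0.000417 to 0.0807). NEK2, which splits centrosomes before mitosis, had 15.7 and 17.6 FPKM with siOGT1, 13.7 and 13.7 FPKM with siOGT2, and 16.5 and 16.1 FPKM with siNC, with the siOGT2 pair below all others. It fell with siOGT2 (log2 fold change -0.24, BH-adjusted p = 0.00609) and differed between the siRNAs by 0.27 (SE 0.0505, BH-adjusted p = 0.00674). PLK1, the polo-like kinase of centrosomes, kinetochores and cytokinesis, was called nowhere and had 11.9 and 13.6 FPKM with siOGT1, 10.8 and 11.3 FPKM with siOGT2, and 12.1 and 11.8 FPKM with siNC.

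Of the spindle checkpoint and APC/C cofactors, 0 of 5 fell with siOGT1 and 3 of 5 with siOGT2. CDC20, the APC/C activator that the checkpoint holds back, had 22.4 and 25.7 FPKM with siOGT1, 20.8 and 22.2 FPKM with siOGT2, and 26.9 and 25.3 FPKM with siNC. Its level fell with siOGT2 (log2 fold change -0.27, BH-adjusted p = 0.00961), a call lost without siNC replicate 1 or siOGT2 replicate 1 or with no filter (BH-adjusted p 0.000619 to 0.0734). UBE2C, the ubiquitin-conjugating enzyme of the APC/C, had 17.3 and 18.8 FPKM with siOGT1, 16.2 and 14.7 FPKM with siOGT2, and 17.9 and 19.5 FPKM with siNC. It fell with siOGT2 (log2 fold change -0.26, BH-adjusted p = 0.00876), lost without siNC replicate 2 or siOGT2 replicate 2 or with no filter (BH-adjusted p 0.00451 to 0.0737), and the siRNAs differed by 0.22 (BH-adjusted p = 0.0362), lost without siOGT1 replicate 2 or siOGT2 replicate 2 or with no filter, no trend or voom (BH-adjusted p 0.0267 to 0.221). BUB1B, the checkpoint protein BubR1, had 6.61 and 6.32 FPKM with siOGT1, 5.80 and 5.87 FPKM with siOGT2, and 6.45 and 7.01 FPKM with siNC. Its fall with siOGT2 was -0.18 (BH-adjusted p = 0.027), lost without siNC replicate 2, siOGT2 replicate 1 or siOGT2 replicate 2 or with no filter (BH-adjusted p 0.0127 to 0.172). BUB3, a partner of BUB1 and BubR1, and MAD2L1, which sequesters CDC20, were called in no comparison. Over the 6 libraries BUB3 lay between 33.9 and 37.9 FPKM, and MAD2L1 between 5.58 and 7.58 FPKM.

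The chromosomal passenger complex corrects wrong attachments at centromeres and moves to the midzone in anaphase. Its kinase AURKB (ENSG00000178999, chromosome 17, 8204733 to 8210600, minus strand) stood at 6.71 and 6.81 FPKM with siOGT1, 5.64 and 5.65 FPKM with siOGT2, and 8.10 and 8.45 FPKM with siNC. All 4 siOGT libraries were below both siNC libraries, and the siOGT2 libraries were below the siOGT1 libraries. It fell with a log2 fold change of -0.26 (SE 0.0451, BH-adjusted p = 0.0044) with siOGT1 and -0.48 (SE 0.0451, BH-adjusted p = 6.58e-05) with siOGT2. Between the siRNAs the log2 fold change was 0.23 (SE 0.0451, BH-adjusted p = 0.00931), lost without siOGT2 replicate 2 or with voom (BH-adjusted p 0.00632 to 0.0633). CDCA8, the subunit borealin, had 8.53 and 9.32 FPKM with siOGT1, 8.03 and 7.66 FPKM with siOGT2, and 10.1 and 10.1 FPKM with siNC. It had a log2 fold change of -0.16 (BH-adjusted p = 0.0528) with siOGT1, not called, and fell with siOGT2 (log2 fold change -0.33, BH-adjusted p = 0.00122). BIRC5, the subunit survivin, had 9.74 and 10.3 FPKM with siOGT1, 8.49 and 8.60 FPKM with siOGT2, and 9.53 and 9.60 FPKM with siNC. Both siOGT2 libraries were below all others, and the fall against siNC (log2 fold change -0.15, BH-adjusted p = 0.0282) was lost without siNC replicate 1, siNC replicate 2, siOGT2 replicate 1 or siOGT2 replicate 2 or with no filter or voom (BH-adjusted p 0.0096 to 0.112). The difference between the siRNAs (log2 fold change 0.21, BH-adjusted p = 0.0115) was lost without siOGT1 replicate 2, siOGT2 replicate 1 or siOGT2 replicate 2 (BH-adjusted p 0.00775 to 0.0719). INCENP, the scaffold subunit, was called in no comparison and lay between 5.78 and 6.92 FPKM.

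Of the centromere and outer kinetochore genes, 1 of 5 fell with siOGT1 and 5 of 5 with siOGT2. CENPA (ENSG00000115163, chromosome 2, 26764289 to 26801067, plus strand), the histone H3 variant of centromeres, stood at 6.24 and 6.59 FPKM with siOGT1, 4.98 and 4.65 FPKM with siOGT2, and 6.37 and 6.51 FPKM with siNC. The siOGT1 and siNC libraries overlapped, and both siOGT2 libraries were below all others. The log2 fold change was -0.004 (BH-adjusted p = 0.967) with siOGT1 and -0.35 (SE 0.0516, BH-adjusted p = 0.000972) with siOGT2, and the siRNAs differed by 0.35 (SE 0.0516, BH-adjusted p = 0.00183). NDC80, a subunit of the complex that binds microtubules at kinetochores, had 7.72 and 8.58 FPKM with siOGT1, 7.75 and 7.61 FPKM with siOGT2, and 9.96 and 9.44 FPKM with siNC, and fell with a log2 fold change of -0.23 (BH-adjusted p = 0.0196) with siOGT1 and -0.30 (BH-adjusted p = 0.00285) with siOGT2. The call with siOGT1 was lost without siNC replicate 1, siNC replicate 2 or siOGT1 replicate 1 or with no filter (BH-adjusted p 0.00791 to 0.127). NUF2, its partner in that complex, had 7.42 and 8.79 FPKM with siOGT1, 6.25 and 7.42 FPKM with siOGT2, and 8.25 and 8.62 FPKM with siNC, and its fall with siOGT2 of -0.27 (BH-adjusted p = 0.0316) was lost without siNC replicate 1, siNC replicate 2 or siOGT2 replicate 1 or with no filter or no trend (BH-adjusted p 0.00395 to 0.198). CENPE, a kinesin that carries chromosomes to the spindle equator, had 10.7 and 11.1 FPKM with siOGT1, 10.5 and 9.74 FPKM with siOGT2, and 12.1 and 11.98 FPKM with siNC, and fell with siOGT2 (log2 fold change -0.23, BH-adjusted p = 0.00446). CENPF, a large protein of the outer kinetochore, had 23.7 and 24.9 FPKM with siOGT1, 21.8 and 22.4 FPKM with siOGT2, and 24.02 and 24.8 FPKM with siNC. Its fall with siOGT2 (log2 fold change -0.14, BH-adjusted p = 0.0224) was lost without siNC replicate 1, siNC replicate 2, siOGT2 replicate 1 or siOGT2 replicate 2 or with no trend (BH-adjusted p 0.00123 to 0.132), and its difference between siRNAs (log2 fold change 0.13, BH-adjusted p = 0.0488) without siNC replicate 1, siNC replicate 2, siOGT1 replicate 2, siOGT2 replicate 1 or siOGT2 replicate 2 or with no filter, no trend, quantile normalization or only the groups compared in the fit (BH-adjusted p 0.00314 to 0.226).

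**Figure D3:**
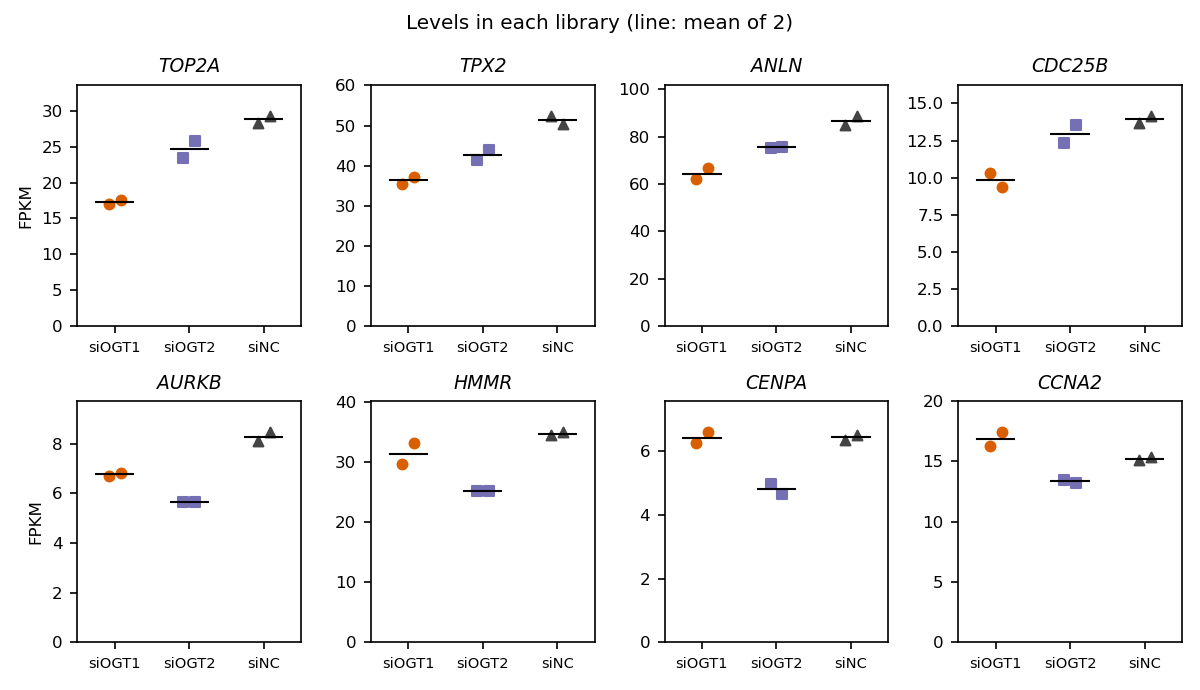
FPKM of 8 members in the 6 libraries, ordered siOGT1, siOGT2 and siNC, with a point per library and a bar at the mean of 2. TOP2A, TPX2, ANLN and CDC25B are lowest with siOGT1, whereas AURKB, HMMR, CENPA and CCNA2 are lowest with siOGT2, and CCNA2 is highest with siOGT1.

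Among the mitotic kinesins, 1 of 5 fell with siOGT1 and 4 of 5 with siOGT2. KIF2C, which depolymerises microtubules at centromeres, had 9.16 and 10.6 FPKM with siOGT1, 9.17 and 8.59 FPKM with siOGT2, and 12.4 and 11.5 FPKM with siNC. It fell with a log2 fold change of -0.25 (BH-adjusted p = 0.0262) with siOGT1, a call lost without siNC replicate 1, siNC replicate 2 or siOGT1 replicate 1 or with no filter or no trend (BH-adjusted p 0.00227 to 0.162), and of -0.39 (SE 0.0651, BH-adjusted p = 0.00196) with siOGT2. KIF11, the motor that pushes spindle poles apart, had 12.9 and 13.5 FPKM with siOGT1, 11.5 and 11.1 FPKM with siOGT2, and 12.7 and 13.2 FPKM with siNC. Its level fell with siOGT2 (log2 fold change -0.18, BH-adjusted p = 0.0107), lost without siNC replicate 2 or siOGT2 replicate 2 (BH-adjusted p 0.00294 to 0.077), and differed between the siRNAs (log2 fold change 0.20, BH-adjusted p = 0.0121), lost without siOGT1 replicate 2 or siOGT2 replicate 2 (BH-adjusted p 0.00151 to 0.0852). KIF4A, a chromosome-bound motor that also sets midzone length, had 6.85 and 7.14 FPKM with siOGT1, 5.91 and 6.59 FPKM with siOGT2, and 8.21 and 7.64 FPKM with siNC, and fell with siOGT2 (log2 fold change -0.30, BH-adjusted p = 0.00418). KIF23, the motor of the centralspindlin complex, had 11.2 and 11.6 FPKM with siOGT1, 10.4 and 10.8 FPKM with siOGT2, and 12.1 and 12.4 FPKM with siNC, and its fall with siOGT2 (log2 fold change -0.19, BH-adjusted p = 0.00746) was lost without siNC replicate 2 (BH-adjusted p 0.00087 to 0.0556). KIF20A, a midzone motor needed for cytokinesis, was called in no comparison and lay between 9.27 and 10.5 FPKM.

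The 3 spindle-associated factors all fell with siOGT2, and TPX2 alone of them with siOGT1. TPX2 (ENSG00000088325, chromosome 20, 31739271 to 31801805, plus strand) stood at 35.4 and 37.3 FPKM with siOGT1, 41.4 and 43.9 FPKM with siOGT2, and 52.4 and 50.4 FPKM with siNC, in the order siOGT1, siOGT2, siNC from low to high with no overlap. Its log2 fold changes were -0.49 (SE 0.0407, BH-adjusted p = 5.92e-05) with siOGT1 and -0.26 (SE 0.0407, BH-adjusted p = 0.00132) with siOGT2. A difference of -0.23 (SE 0.0407, BH-adjusted p = 0.00558) between the siRNAs was lost without siOGT2 replicate 2 (BH-adjusted p 4.85e-05 to 0.0546). HMMR (ENSG00000072571, chromosome 5, 163460203 to 163491945, plus strand), a hyaluronan receptor that also binds spindle poles, stood at 29.6 and 33.1 FPKM with siOGT1, 25.1 and 25.1 FPKM with siOGT2, and 34.4 and 34.9 FPKM with siNC. The log2 fold change was -0.14 (SE 0.0475, BH-adjusted p = 0.0699) with siOGT1, not called, and -0.45 (SE 0.0475, BH-adjusted p = 0.000153) with siOGT2, and the siRNAs differed by 0.30 (SE 0.0475, BH-adjusted p = 0.00256). DLGAP5, which stabilises kinetochore fibres, had 15.3 and 15.7 FPKM with siOGT1, 12.1 and 13.2 FPKM with siOGT2, and 15.4 and 15.5 FPKM with siNC. It had a log2 fold change of 0.00 (BH-adjusted p = 0.963) with siOGT1, not called, and fell with siOGT2 (log2 fold change -0.27, BH-adjusted p = 0.00231) and differed between the siRNAs by 0.28 (BH-adjusted p = 0.00413).

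Of the cytokinesis factors, ANLN (ENSG00000011426, chromosome 7, 36389806 to 36453791, plus strand), the anillin that links actin, myosin and septins in the contractile ring, had the highest siNC mean of the 38 members at 86.7 ± 2.76 FPKM (SD, n = 2). It stood at 62.03 and 66.6 FPKM with siOGT1, 75.2 and 75.6 FPKM with siOGT2, and 84.8 and 88.7 FPKM with siNC, again in the order siOGT1, siOGT2, siNC with no overlap. Its log2 fold changes were -0.43 (SE 0.0391, BH-adjusted p = 0.000102) with siOGT1 and -0.20 (SE 0.0391, BH-adjusted p = 0.0045) with siOGT2, and the siRNAs differed by -0.23 (SE 0.0391, BH-adjusted p = 0.0044). ECT2, which activates RhoA at the division plane, was called in no comparison and lay between 30.3 and 32.2 FPKM in all 6 libraries.

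Of the mitotic chromosome proteins, TOP2A (ENSG00000131747, chromosome 17, 40388516 to 40417950, minus strand) averaged 17.2 ± 0.399 FPKM with siOGT1, 24.6 ± 1.66 FPKM with siOGT2 and 28.8 ± 0.657 FPKM with siNC (SD, n = 2 each). The libraries stood at 16.95 and 17.5 FPKM with siOGT1, 23.5 and 25.8 FPKM with siOGT2, and 28.4 and 29.3 FPKM with siNC, and the 3 groups did not overlap. It fell with a log2 fold change of -0.71 (SE 0.0468, BH-adjusted p = 1.55e-05) with siOGT1 to 59.8% of the siNC mean, the largest fall of a member with either siRNA, and of -0.22 (SE 0.0468, BH-adjusted p = 0.0066) with siOGT2 to 85.5%. The call with siOGT2 was lost without siNC replicate 2 (BH-adjusted p 1.62e-05 to 0.0533). The siRNAs differed by -0.49 (SE 0.0468, BH-adjusted p = 0.000152). MKI67, the Ki-67 protein that coats mitotic chromosomes and is a common proliferation marker, had 8.65 and 8.72 FPKM with siOGT1, 7.62 and 8.09 FPKM with siOGT2, and 8.71 and 8.96 FPKM with siNC. It had a log2 fold change of -0.02 (BH-adjusted p = 0.785) with siOGT1, not called, and fell with siOGT2 (log2 fold change -0.15, BH-adjusted p = 0.0286), a call lost without siNC replicate 1, siNC replicate 2 or siOGT2 replicate 1 or with no filter (BH-adjusted p 0.00197 to 0.149).

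Other genes of cell division gave a wider frame for the members. Of 155 genes in 9 lists, 139 were tested, of which 24 (17.3%) fell and 4 (2.88%) rose with siOGT1, beside 8.10% and 9.51% of all tested genes. With siOGT2 36 (25.9%) fell and 17 (12.2%) rose, beside 13.4% and 22.1% of all tested genes. These shares of all tested genes apply to each list below, and differences between lists were not tested. Scaled by the trimmed mean of log ratios, 47 fell and 6 rose with siOGT2, where 17.4% and 13.6% of all tested genes did. Leaving out a library moved these counts: without siNC replicate 1, siNC replicate 2 or siOGT1 replicate 1, the number lower with siOGT1 was 8, 9 and 9. The share of all tested genes was also smaller there, at 5.10%, 5.37% and 6.15%. The number lower with siOGT2 was 23, 16 and 23 without siNC replicate 1, siNC replicate 2 and siOGT2 replicate 2, beside 9.17%, 8.92% and 9.30% of all tested genes. The number higher with siOGT2 was 6, 5, 8 and 6 without siNC replicate 1, siNC replicate 2, siOGT2 replicate 1 and siOGT2 replicate 2, beside 12.9%, 12.2%, 14.3% and 11.8% of all tested genes.

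**Figure D4:**
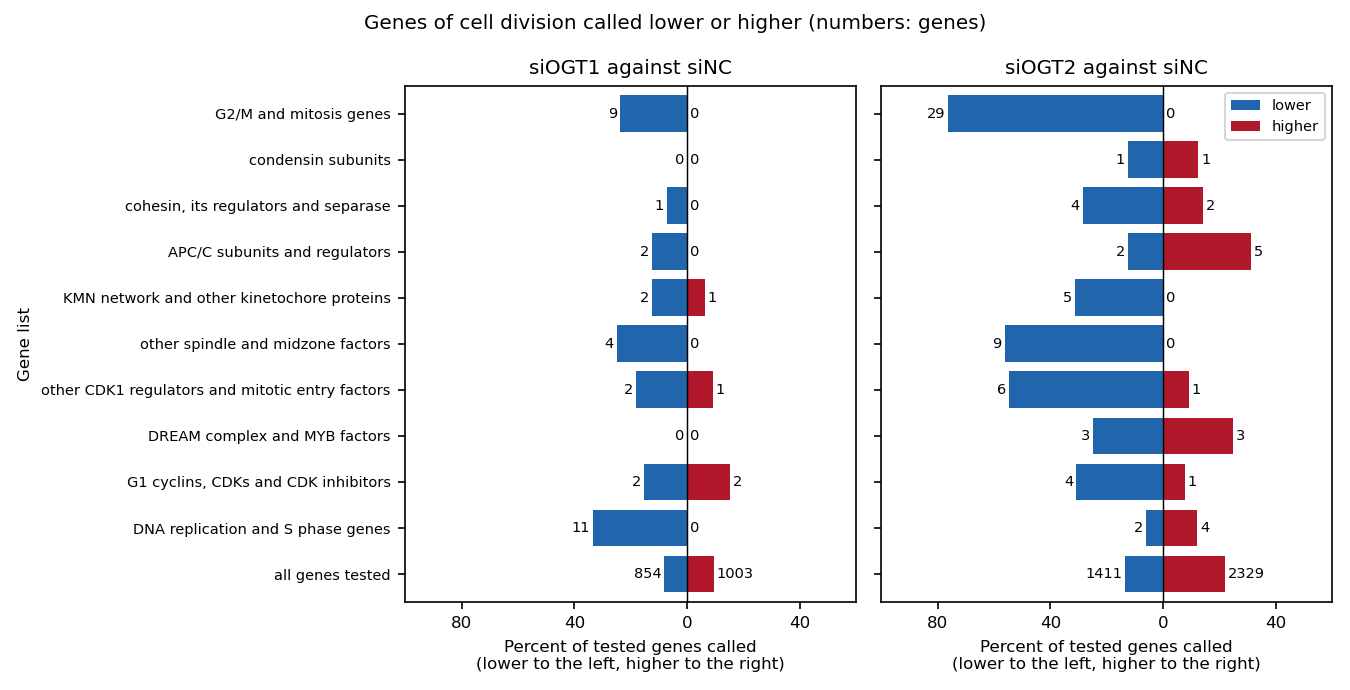
Percent of the tested genes of each list called lower (left, blue) or higher (right, red) against siNC, with siOGT1 in the left panel, siOGT2 in the right panel and the number of genes beside each bar. The members have 9 and 29 genes lower and 0 higher, and the replication and S phase list has 11 lower with siOGT1 and 2 with siOGT2.

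Of the spindle and midzone factors outside the members, 4 of 16 fell with siOGT1 and 9 of 16 with siOGT2, and 0 rose with either. The siOGT1 count was 2, 2 and 1 without siNC replicate 1, siNC replicate 2 and siOGT1 replicate 1. KIF14, a midbody kinesin, had 7.72 and 7.83 FPKM with siOGT1, 5.43 and 5.81 FPKM with siOGT2, and 8.45 and 9.43 FPKM with siNC, and fell with siOGT2 (log2 fold change -0.58, BH-adjusted p = 8.56e-05) with a difference between siRNAs of 0.41 (BH-adjusted p = 0.00143). ASPM, which organises spindle poles, had 13.7 and 14.4 FPKM with siOGT1, 11.1 and 11.1 FPKM with siOGT2, and 14.9 and 15.5 FPKM with siNC, and likewise fell with siOGT2 (log2 fold change -0.42, BH-adjusted p = 9.21e-05) and differed between siRNAs (log2 fold change 0.31, BH-adjusted p = 0.000989). Among the other CDK1 regulators and mitotic entry factors, 2 of 11 fell and 1 rose with siOGT1 (3 and 0 under the trimmed mean), and 6 fell and 1 rose with siOGT2. The count lower with siOGT2 was 1, 1, 2 and 2 without siNC replicate 1, siNC replicate 2, siOGT2 replicate 1 and siOGT2 replicate 2, and that with siOGT1 was 4 without siOGT1 replicate 2. MASTL, the Greatwall kinase that keeps the phosphatase PP2A-B55 off in mitosis, had 9.37 and 9.60 FPKM with siOGT1, 8.36 and 7.65 FPKM with siOGT2, and 13.1 and 12.6 FPKM with siNC, and fell with a log2 fold change of -0.40 (BH-adjusted p = 0.00057) with siOGT1 and -0.62 (BH-adjusted p = 2.19e-05) with siOGT2. ENSA, the MASTL substrate that inhibits that phosphatase, had 26.9 and 28.7 FPKM with siOGT1, 29.3 and 29.1 FPKM with siOGT2, and 25.1 and 24.3 FPKM with siNC, and rose with log2 fold changes of 0.16 (BH-adjusted p = 0.0215) with siOGT1 and 0.23 (BH-adjusted p = 0.00212) with siOGT2. The call with siOGT1 was lost without siNC replicate 1, siNC replicate 2 or siOGT1 replicate 2 or with no filter, no trend or the trimmed mean (BH-adjusted p 0.00173 to 0.132). MELK, a kinase of proliferating cells, had 5.24 and 6.07 FPKM with siOGT1, 8.88 and 10.1 FPKM with siOGT2, and 11.9 and 10.1 FPKM with siNC, fell with a log2 fold change of -0.85 (BH-adjusted p = 0.00019) with siOGT1 and differed between the siRNAs by -0.66 (BH-adjusted p = 0.000989).

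Calls in the other mitotic lists were as follows. Of 16 tested genes of the KMN network and other kinetochore proteins, 2 fell and 1 rose with siOGT1 (0 and 0 without siNC replicate 2), and 5 fell and 0 rose with siOGT2. The 5 became 0, 3 and 2 without siNC replicate 2, siOGT2 replicate 1 and siOGT2 replicate 2. Of 14 cohesin genes with regulators and separase, 1 fell with siOGT1 (0 without any 1 of the 6 libraries), and 4 fell and 2 rose with siOGT2 (6 and 0 under the trimmed mean, 4 and 0 under quantile normalization). The 4 became 1, 0, 2, 2, 1 and 1 without siNC replicate 1, siNC replicate 2, siOGT1 replicate 1, siOGT1 replicate 2, siOGT2 replicate 1 and siOGT2 replicate 2. Of 8 condensin subunits none was called with siOGT1, and 1 fell and 1 rose with siOGT2 (2 and 0 under the trimmed mean, and 0 and 0 without either siNC replicate). Of 16 APC/C subunits and regulators, 2 fell with siOGT1 (0 without any 1 of the 6 libraries), and 2 fell and 5 rose with siOGT2. These are 12.5% and 31.2% of the 16, beside 13.4% and 22.1% of all tested genes. Under the trimmed mean 3 fell and 1 rose with siOGT2, and under quantile normalization 3 fell and 4 rose, and the 5 became 1 without any 1 of the siNC or siOGT2 libraries. FBXO5, the APC/C inhibitor EMI1, was among those that fell, at 5.06 and 5.29 FPKM with siOGT1, 4.56 and 4.52 FPKM with siOGT2, and 6.15 and 5.79 FPKM with siNC (log2 fold change -0.175 with siOGT1, BH-adjusted p = 0.0442, and -0.33 with siOGT2, BH-adjusted p = 0.00134). The FBXO5 call with siOGT1 was lost without any 1 of the 6 libraries. It was also lost with no filter, voom, a replicate block or only the groups compared in the fit. The FBXO5 call with siOGT2 held under all alternatives. Of 12 DREAM and MYB genes, which control many of the members, none was called with siOGT1 (1 fell under either other scaling), and 3 fell and 3 rose with siOGT2 (4 and 1 under the trimmed mean). The 3 and 3 became 0 and 1 without siNC replicate 2 and 1 and 1 without siOGT2 replicate 2.

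Genes of the earlier cycle phases were taken as a further frame. Of 33 DNA replication and S phase genes, 11 fell and 0 rose with siOGT1, and 2 fell and 4 rose with siOGT2 (4 and 3 under the trimmed mean, 3 and 3 under quantile normalization). In the direct comparison, 9 of the 33 were lower with siOGT1 than with siOGT2 and 0 higher, beside 8.24% and 8.35% of all tested genes. The 4 that rose became 2 without either siNC replicate or siOGT2 replicate 1. The 11 became 3, 4, 3 and 6 without siNC replicate 1, siNC replicate 2, siOGT1 replicate 1 and siOGT1 replicate 2. FEN1, the flap endonuclease of lagging-strand synthesis, had 8.75 and 8.67 FPKM with siOGT1, 8.86 and 8.99 FPKM with siOGT2, and 10.6 and 10.2 FPKM with siNC. Its level fell with a log2 fold change of -0.24 (BH-adjusted p = 0.00437) with siOGT1 and -0.20 (BH-adjusted p = 0.00524) with siOGT2. Of 13 G1 cyclins, CDKs and inhibitors, 2 fell and 2 rose with siOGT1 (2 and 1 under the trimmed mean, 1 and 1 without either siNC replicate), and 4 fell and 1 rose with siOGT2 (6 and 0). The 4 became 2 without siOGT2 replicate 2. CCND1, the cyclin of G1 entry, had 60.4 and 58.3 FPKM with siOGT1, 61.4 and 62.5 FPKM with siOGT2, and 78.97 and 76.1 FPKM with siNC. Its level fell with a log2 fold change of -0.38 (BH-adjusted p = 7.78e-05) with siOGT1 and -0.32 (BH-adjusted p = 0.00013) with siOGT2. CDKN1B, the CDK inhibitor p27, had 7.13 and 7.44 FPKM with siOGT1, 6.21 and 6.44 FPKM with siOGT2, and 7.96 and 7.93 FPKM with siNC, and fell with siOGT2 (log2 fold change -0.29, BH-adjusted p = 0.00143). CDK6, a CCND1 partner, had 44.1 and 44.01 FPKM with siOGT1, 42.3 and 40.96 FPKM with siOGT2, and 38.4 and 39.1 FPKM with siNC. It rose with log2 fold changes of 0.18 (BH-adjusted p = 0.00436) with siOGT1 and 0.099 (BH-adjusted p = 0.0362) with siOGT2. The call with siOGT2 was lost without either siNC or either siOGT2 replicate, or with no trend or the trimmed mean (BH-adjusted p 0.0066 to 0.23).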

How the data were processed

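RNA from the 6 KGN libraries was extracted with TRIzol and made into libraries with a NEBNext Ultra II kit, per the labels' protocols. Reads were trimmed with cutadapt 1.15 and aligned to GRCh38 with HISAT2, per the submitters' processing notes. For the counting program, annotation and strand setting, nothing is stated in the labels, so reads of overlapping or antisense genes cannot be told apart. The authors deposited FPKM values for 20036 genes. Of these, 20011 had a symbol in the gene name table. Whole reads, recovered within 0.01 reads for 100.0% of tested genes, gave library totals of about 16756647 to 21416486.

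Values were taken as log2(FPKM + 1) for the 10547 genes with a mean of at least 1 FPKM. All 6 libraries entered 1 limma 3.58.1 fit (R 4.3.3, intensity trend, 3 residual degrees of freedom), with two-sided tests and Benjamini-Hochberg adjustment over all tested genes. The procedure was also run on simulated data in which genes varied independently of each other. That run does not cover genes that move together between libraries, as most members did within the siOGT1 group. Each siRNA and the mean of both were compared with siNC, and siOGT1 with siOGT2. All 38 members are named. Per-library values are given for those called in any contrast. Of each list of other genes, up to 3 with the smallest p for the mean of both siRNAs could be named. The members and lists were chosen with earlier results of these data known. The alternatives were pseudocounts of 0.1 and 5, no filter, a mean of at least 5 FPKM, scaling by a trimmed mean of log ratios, quantile normalization, no intensity trend, only the groups compared, a replicate block and each library left out. A limma voom fit to the recovered reads was added after seeing the data.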

Additional observations from a re-analysis of the deposited data

Results flagged for a closer look

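The effects of the siRNAs against the same controls differed for 18 of the 38 members, by the limma test of siOGT1 against siOGT2. Of all tested genes, 8.24% were lower and 8.35% higher with siOGT1 in this comparison. Lower with siOGT1 were TOP2A at a log2 fold change of -0.49, CDC25B at -0.36, ANLN at -0.23 and TPX2 at -0.23. Higher with siOGT1 were CENPA at 0.35, CCNA2 at 0.31, HMMR at 0.30, TTK at 0.30, CDC25C at 0.30, DLGAP5 at 0.28, NEK2 at 0.27, AURKB at 0.23, CCNB1 at 0.22, UBE2C at 0.22, BIRC5 at 0.21, KIF11 at 0.20, CDK1 at 0.20 and CENPF at 0.13. Of these 18 calls, 8 held under all alternatives.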

How the results depend on the processing

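Over the alternatives no called member changed direction, and 6 of the 9 calls with siOGT1, 17 of 29 with siOGT2, 11 of 21 for their mean and 8 of 18 between the siRNAs held under all of them. Members lower with siOGT1 numbered 6 to 13 with 1 library left out, with siOGT2 18 to 30, for the mean of both siRNAs 12 to 23, and against siOGT2 3 to 4 were lower and 6 to 19 higher. The matching shares of all tested genes were smaller with a library left out than with every library kept, whereas some of these member counts were larger. With no filter 8 were higher with siOGT1 than with siOGT2, beside 3.06% of all genes tested in that setting. CCNA2 was higher with siOGT1 against siNC with a pseudocount of 5, with at least 5 FPKM, and in the range of 0 to 1 with 1 library left out. The member median for siOGT1 was -0.081 with the trimmed mean, -0.063 with quantile normalization and -0.131 to -0.017 with 1 library left out. For siOGT2 it was -0.25, -0.19, -0.28 and -0.25 with a pseudocount of 0.1, of 5, the trimmed mean and voom, and -0.24 to -0.21 with 1 library left out. For the mean of both it was -0.18, -0.11, -0.20 and -0.18 under the same, and -0.19 to -0.13 with 1 left out. Between the siRNAs it was 0.15, 0.10 and 0.16 with a pseudocount of 0.1, of 5 and voom, and 0.093 to 0.195 with 1 left out. The causes were not tested. Labels do not say that replicate numbers mark pairs, and deviations of same-numbered libraries correlated at -0.02, -0.03 and 0.05 over all tested genes. With a replicate block 9 members were lower with siOGT1, 30 with siOGT2 and 21 for their mean, beside 7.85%, 13.1% and 11.4% of all tested genes. Between the siRNAs 4 were lower and 15 higher with this block, beside 7.89% and 7.98%. With 2 libraries per group from 1 cell line, each estimate rests on few values, and where a library is left out the remaining one is assumed to vary like the other groups. FPKM cannot show a change in total RNA per cell.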
